A study of Homo sapiens with 6 samples.

Results

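Interleukins and their receptors were described in BT-549 cells, an established human triple-negative breast cancer line, after silencing of IRF1, a transcription factor of the interferon response. The genes were taken by symbol: IL, a number and one of the usual endings for a ligand, receptor chain, antagonist or binding protein. Of the 37887 symbols in the table of counts, 72 matched. A transcript counted as detected in a library at 3 or more counts. By that floor, 42 of the 72 genes were detected in every library. The filter on low counts also passed 42, of which 41 were the same genes, IL2RB entering in place of IL24. A further 23 had counts but were not tested, and 7 had no count in any library. RNA came from triplicate cultures, and mRNA libraries were made with a stranded kit. Vehicle (0.1% DMSO) was given to the 3 control samples, and doxycycline at 500 ng/ml, which induces the short hairpin RNA (shRNA), to the 3 IRF1shRNA samples. By their titles the controls carried a control shRNA. By the text of the series, all samples came from 1 tet-IRF1shRNA line kept in vehicle or doxycycline. Doxycycline was given to the silenced samples alone, so effects of the drug and of the shRNA cannot be told apart. If the titles hold, the groups are also different lines, and effects of the line cannot be told apart from silencing. In these bulk samples, less RNA per cell and fewer cells that express a gene cannot be told apart either.

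Interleukins are secreted proteins through which cells, above all leukocytes, signal to each other. Their receptors are built from several chains, and some chains are shared: the common gamma chain by IL-2, IL-7 and IL-15, gp130 (encoded by IL6ST) by IL-6 and IL-11, and the IL-1 receptor accessory protein by the IL-1 and IL-36 cytokines and IL-33. Most interleukin receptors act through JAK kinases and STAT factors, whereas IL-1, IL-18 and IL-17 receptors act through adaptor proteins that lead to NF-kappaB. IRF1 binds interferon-response DNA elements and is known as an activator of IL15 and IL12A in immune cells.

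Expression is given as CPM, the counts of a gene per 1000000 counts of its library, scaled for library composition, and each log2 fold change is IRF1shRNA against control ± SE, with a p-value from edgeR's quasi-likelihood test adjusted over the 18851 genes tested. A gene is called where the adjusted p was under 0.05. IRF1 itself was at 45.3, 48.1 and 51.5 CPM in the control samples and at 13.8, 14.9 and 14.6 CPM in the IRF1shRNA samples, a fall to 29.9% (log2 fold change −1.74 ± 0.06, edgeR adjusted p = 4.53e-13). Total counts lay between 55143808 and 160436234 per library, the lowest in IRF1shRNA replicate 2, so that 3 counts stood for 0.0182 to 0.054 CPM. Interleukin genes are mostly leukocyte genes, and of the leukocyte markers MS4A1 and TYROBP had no count in any library and CD3E none in the controls. Other leukocyte markers had counts, among them PTPRC with 42 to 80 per library. The 12 leukocyte markers summed to 2.02 to 2.25 CPM in the control and 3.15 to 4.05 CPM in the IRF1shRNA samples. CD14 rose from 1.09 to 2.22 CPM (edgeR adjusted p = 1.43e-05). PTPRC (0.526 and 0.481 CPM), FCER1G (0.253 and 0.402 CPM), ITGAM (0.178 and 0.19 CPM) and CD247 (0.0649 and 0.103 CPM) were not called. Summed epithelial markers were at 8.38 to 8.89 against 3.91 to 4.46 CPM and mesenchymal ones at 1940 to 2050 against 1510 to 1620 CPM. Among the epithelial markers, KRT18 (6.34 to 2.92 CPM) and KRT8 (1.52 to 0.441 CPM) were called lower. CDH1 (0.676 and 0.673 CPM) and EPCAM (0.0714 and 0.11 CPM) were not called. Among the mesenchymal markers, VIM, FN1 and ZEB1 were called lower and CDH2 was not called. Hormone receptors and HER2 together were at 48.1 to 55 CPM in the controls, nearly all of it ERBB2, against 35.2 to 38.4 CPM. The part of these shifts in the interleukin results was not tested.

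Because IRF1 binds DNA near gene starts, RefSeq promoter windows (GRCh38.p14, from 250 bases before to 50 after a start) were read for 2 elements. The interferon regulatory factor (IRF) element was searched on both strands as GAAA, any 2 bases and GAAA, and the STAT element as TTC, any 3 bases and GAA, which reads alike on both strands. The IRF element lay in 3.57% of all 35116 windows and in 10 of the 91 windows of these genes. Windows of a gene can overlap, and a single match in IL1RN was counted in each of its overlapping windows. The STAT element lay in 7.66% of all windows and also in 10 of the 91. The windows with the IRF element belonged to 9 genes, of which 4 were tested and 2 called. Those with the STAT element belonged to 10 genes, of which 6 were tested and 3 called. Of all 33 tested genes with a window, 17 were called. IL12A and IL37 held the IRF element and were tested but not called. A gene could have several windows, and 56 of the 72 genes had one, 17 of the 21 called genes among them. IL7, IL15, IL13RA2 and IL31RA had none. Of the 17, the 4 below held a match, shown 5′ to 3′ on the gene's strand with matched bases in capitals. They are IL15RA (chr10:5978047-5978296, minus strand), IL17D (chr13:20702842-20703091, plus strand), IL18BP (chr11:71999367-71999628, plus strand) and IL18R1 (chr2:102356033-102356282, plus strand).
IL15RA: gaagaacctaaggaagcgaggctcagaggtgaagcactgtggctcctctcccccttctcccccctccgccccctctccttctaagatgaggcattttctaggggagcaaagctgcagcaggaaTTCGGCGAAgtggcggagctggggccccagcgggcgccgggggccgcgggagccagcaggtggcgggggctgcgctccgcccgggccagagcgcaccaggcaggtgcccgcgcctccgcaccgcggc
IL17D: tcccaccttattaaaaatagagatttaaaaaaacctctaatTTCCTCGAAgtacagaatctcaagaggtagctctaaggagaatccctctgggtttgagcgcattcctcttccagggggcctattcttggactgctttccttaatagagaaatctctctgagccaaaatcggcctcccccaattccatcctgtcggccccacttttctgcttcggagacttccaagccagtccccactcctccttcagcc
IL18BP: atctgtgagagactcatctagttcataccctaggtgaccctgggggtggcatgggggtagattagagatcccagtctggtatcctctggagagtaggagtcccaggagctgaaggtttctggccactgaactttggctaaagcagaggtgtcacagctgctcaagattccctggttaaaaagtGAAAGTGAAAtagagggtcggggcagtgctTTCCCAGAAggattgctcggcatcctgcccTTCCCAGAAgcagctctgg
IL18R1: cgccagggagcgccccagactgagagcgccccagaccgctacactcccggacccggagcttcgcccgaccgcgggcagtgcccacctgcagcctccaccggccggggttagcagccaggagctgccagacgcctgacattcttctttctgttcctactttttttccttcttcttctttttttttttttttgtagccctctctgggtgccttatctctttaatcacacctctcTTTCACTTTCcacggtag
IL18BP held the IRF element 67 bases before the start and the STAT element 37 and 7 bases before it, the last running over the start. IL18R1 held the IRF element on the opposite strand, 18 bases before the start. The STAT element stood 127 bases before the start of IL15RA and 209 bases before that of IL17D. Each distance is to the start that the window shown belongs to. All 4 genes also had other windows, in which neither element was found. A match describes letters in these windows and is no evidence of binding. Of these 4 genes, IL15RA fell and the other 3 rose. The rises of IL18BP and IL18R1 were near the threshold and were not called by DESeq2 (adjusted p = 0.0603 and 0.0531).

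Silencing of IRF1 went with lower transcripts of the IL-15 and IL-7 ligands and of their private receptor chains, of IL-6, and of the IL-22 receptor chain IL22RA1. It went with higher transcripts of IL-32, IL-17D, the IL-1 receptor accessory protein and the IL-31 receptor. Of the 42 genes tested, 21 were called (50%), where 50.5% of all genes tested were. The called genes were 12 lower (28.6%, against 26.4% of all genes) and 9 higher (21.4%, against 24.1%). The frequency of calls among these genes was thus near that of the whole table. Past a 2-fold change as well were 9 of the 42 (21.4%, against 7.86% of all genes). These were 6 lower (14.3%, against 4.43%) and 3 higher (7.14%, against 3.43%). In 26 of the 42 genes (61.9%, against 56.8% of all genes) the values of the groups did not overlap. The median log2 fold change was −0.14 over the 42 genes and −0.0024 over all genes tested, and the median absolute change was 0.52 and 0.28. For the 25 genes at a mean of at least 1 CPM, the median was −0.12 and the median absolute change 0.52, beside −0.02 and 0.24 for all 13066 genes at that level.

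**Figure D1:**
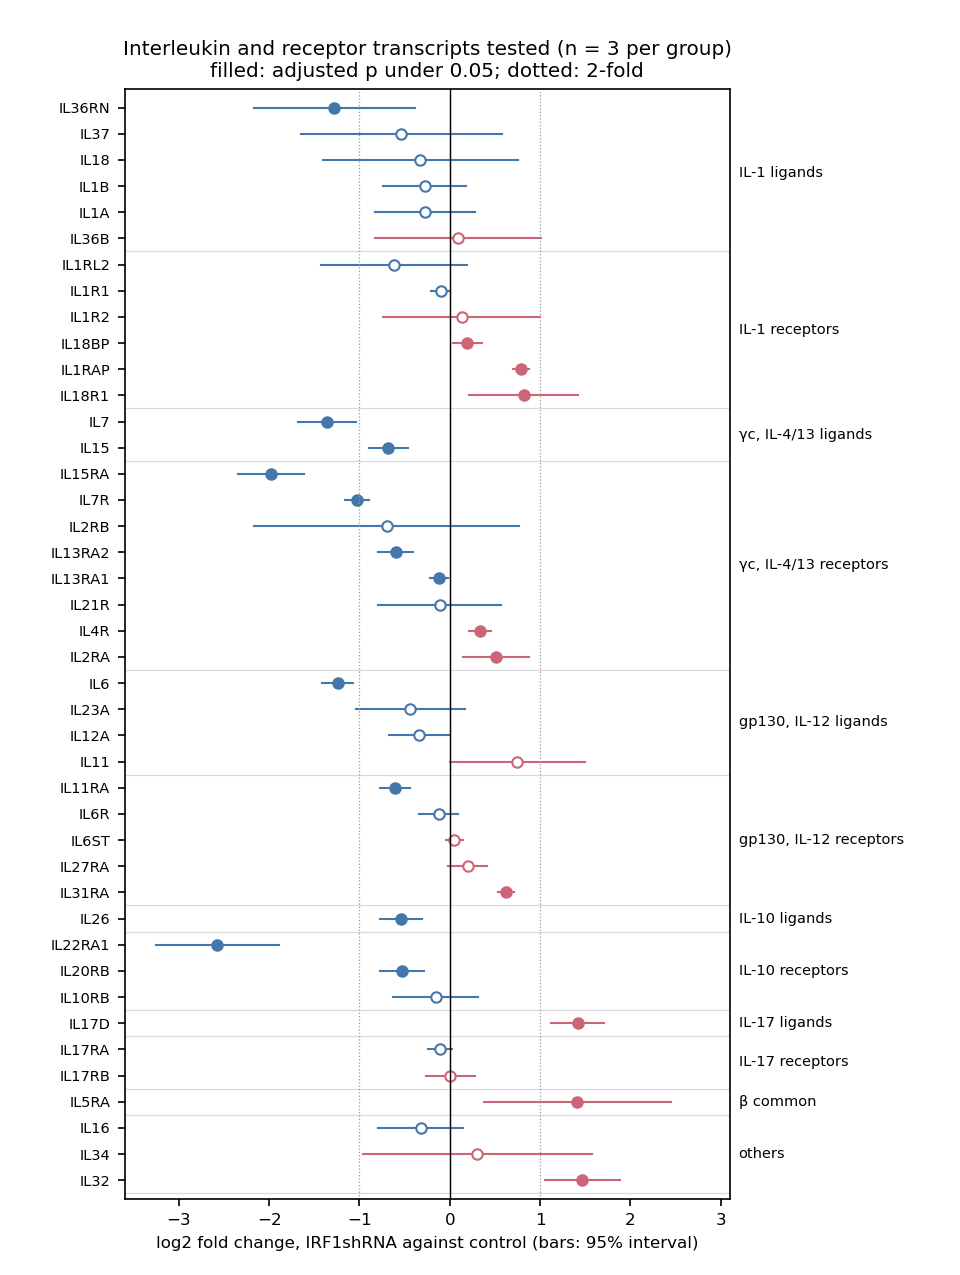
Log2 fold change of IRF1shRNA against control (horizontal axis) with its 95% interval for each of the 42 genes tested, grouped by family, with filled points for an adjusted p under 0.05. The 2 ligands of the common gamma chain group, IL7 and IL15, lie left of 0, IL22RA1 lies farthest left at −2.58, and IL32, IL17D and IL5RA lie right of the dotted 2-fold line.

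Common gamma chain cytokines act mainly on lymphocytes, and 2 of their ligands were measured well. IL7, a survival factor of T cells, was at 3.33, 3.18 and 3.55 CPM in the control samples and at 1.10, 1.04 and 1.65 CPM in the IRF1shRNA samples. It fell to 37.8% of control (3.35 ± 0.184 to 1.27 ± 0.335 CPM, SD, n = 3, log2 fold change −1.36 ± 0.15, edgeR adjusted p = 7.4e-07), and the groups did not overlap. IL15, which sustains natural killer cells and memory T cells, was at 5.79, 6.05 and 5.81 CPM in the control samples and at 3.40, 4.41 and 3.37 CPM in the IRF1shRNA samples. It fell to 63.4% (log2 fold change −0.68 ± 0.10, edgeR adjusted p = 2.47e-05), and IRF1shRNA replicate 2 was the highest of its group but below each control.

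The private receptor chains of these ligands, IL15RA and IL7R, fell as well. IL15RA, which holds IL-15 at the cell surface and presents it to neighbouring cells, was at 1.94, 1.96 and 1.78 CPM in the control samples and at 0.516, 0.360 and 0.510 CPM in the IRF1shRNA samples. This was a fall to 24.4% (1.89 ± 0.0957 to 0.462 ± 0.0883 CPM, SD, n = 3, log2 fold change −1.98 ± 0.17, edgeR adjusted p = 3.96e-08), with the lowest control over 3 times the highest silenced sample. IL15RA spans chr10:5943639-5978187 on the minus strand (GRCh38, GENCODE 29). IL7R, the private chain of the IL-7 receptor (chr5:35852695-35879603, plus strand), was at 31.9, 34.5 and 34.4 CPM in the control samples and at 16.2, 17.5 and 15.9 CPM in the IRF1shRNA samples. It fell to 49.2% (33.6 ± 1.47 to 16.6 ± 0.871 CPM, SD, n = 3, log2 fold change −1.03 ± 0.06, edgeR adjusted p = 4e-10), and the groups lay well apart. The common gamma chain itself, IL2RG, had 0, 1 and 1 counts in the controls and none in the IRF1shRNA libraries. A neighbour on the same strand covers 50.8% of its exon length, and the part of this in its low counts was not tested.

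IL2RA, the high-affinity IL-2 receptor chain, was at 0.901, 0.914 and 0.751 CPM in the control samples and at 1.10, 1.15 and 1.38 CPM in the IRF1shRNA samples. It rose (log2 fold change 0.51 ± 0.17, edgeR adjusted p = 0.0205) with no overlap, but the call was lost without control replicate 3 (0.43) or without IRF1shRNA replicate 3 (0.39). The IL-2 and IL-15 signalling chain IL2RB and the IL-21 receptor IL21R were below 1 CPM and not called, with log2 fold changes of −0.70 and −0.11. IL2, IL9 and IL21 had no count, and IL4 and IL13 had between 0 and 12 counts per library.

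IL-4 and IL-13 share receptor chains that are common on epithelial and fibroblast-like cells. IL13RA2, a decoy for IL-13, was at 13.4, 11.4 and 13.9 CPM in the control samples and at 8.36, 9.69 and 7.70 CPM in the IRF1shRNA samples, and fell to 66.5% (log2 fold change −0.60 ± 0.09, edgeR adjusted p = 3.21e-05). IL4R, which binds IL-4 in either receptor form, was at 23.3, 25.6 and 26.2 CPM in the control samples and at 31.6, 31.7 and 31.3 CPM in the IRF1shRNA samples, and rose 1.26-fold (log2 fold change 0.33 ± 0.06, edgeR adjusted p = 0.000133). In both genes the groups were apart, in opposite directions. IL13RA1, the signalling chain for IL-13, was at 118, 115 and 116 against 100, 114 and 107 CPM. Its difference of −0.12 ± 0.05 (edgeR adjusted p = 0.0364) did not stay past the threshold without control replicate 1, control replicate 2, IRF1shRNA replicate 1 or IRF1shRNA replicate 3, where it ranged from −0.13 to −0.08.

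**Figure D2:**
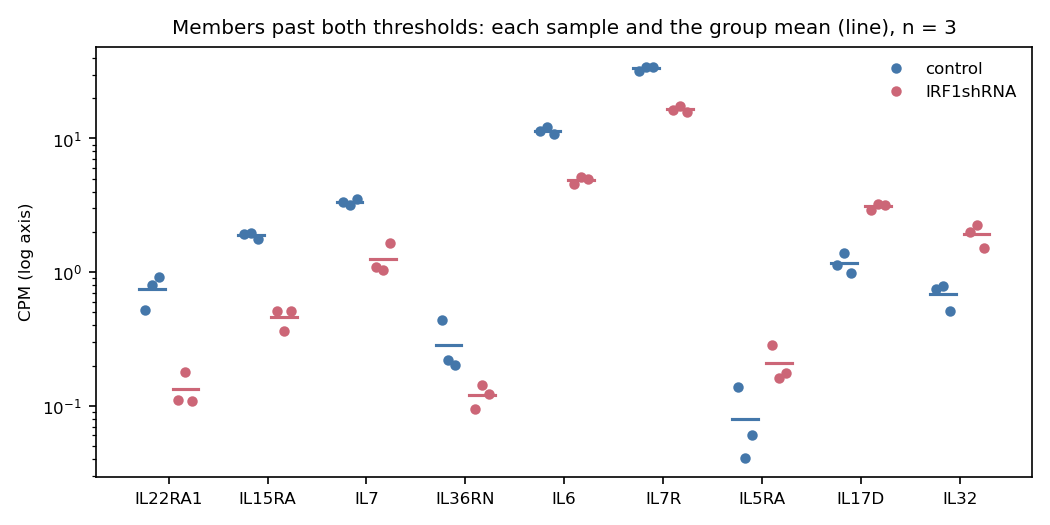
CPM on a log axis for each of the 3 control and 3 IRF1shRNA samples, with lines at the group means, for the 9 genes called with over 2-fold change. In each gene the groups are apart, from 31.9 to 34.5 against 15.9 to 17.5 CPM in IL7R down to values under 0.3 CPM in IL5RA.

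The gp130 cytokine IL-6, an inflammatory cytokine that breast carcinoma cells are known to secrete, showed the smallest p-value of the ligands named here. IL6 (chr7:22725884-22732002, plus strand) was at 11.4, 12.2 and 10.8 CPM in the control samples and at 4.53, 5.12 and 4.95 CPM in the IRF1shRNA samples. It fell to 42.4% (11.5 ± 0.69 to 4.87 ± 0.302 CPM, SD, n = 3, log2 fold change −1.24 ± 0.08, edgeR adjusted p = 9.66e-10), the groups being far apart. Neither of its receptor chains was called. IL6R, which binds IL-6, was at 8.49, 11.6 and 8.72 against 9.37, 8.74 and 8.36 CPM (log2 fold change −0.12 ± 0.10, edgeR adjusted p = 0.352), with overlapping groups. IL6ST, encoding gp130, was at 584, 559 and 528 against 580, 566 and 583 CPM, and the 95% interval of its log2 fold change ran from −0.05 to 0.14.

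Among the other receptors of this class, IL11RA and IL31RA went in opposite directions. IL11RA, the IL-11 binding chain, was at 14.0, 13.5 and 14.7 CPM in the control samples and at 8.40, 9.08 and 10.2 CPM in the IRF1shRNA samples, a fall to 65.6% (log2 fold change −0.60 ± 0.08, edgeR adjusted p = 5.19e-06). IL31RA, which pairs with the oncostatin M receptor to bind IL-31, was at 54.8, 54.4 and 52.6 CPM in the control samples and at 80.4, 86.4 and 82.3 CPM in the IRF1shRNA samples. It rose 1.54-fold (53.9 ± 1.15 to 83.1 ± 3.09 CPM, SD, n = 3, log2 fold change 0.62 ± 0.04, edgeR adjusted p = 2.3e-09), and every silenced sample was above every control. IL31RA lies at chr5:55851379-55922853 on the plus strand. IL27RA was at 3.42, 4.28 and 4.35 against 4.87, 4.47 and 4.49 CPM, apart in values but not called (log2 fold change 0.20 ± 0.10, edgeR adjusted p = 0.126). IL12A, the p35 chain of IL-12, was at 1.67, 1.32 and 1.64 against 1.32, 1.03 and 1.27 CPM and missed the threshold (log2 fold change −0.34 ± 0.16, edgeR adjusted p = 0.0844). IL11 and IL23A were below 1 CPM and not called, with differences of 0.75 and −0.44.

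Of the IL-1 family, the receptor chains IL1RAP and IL1R1 were above 1 CPM, and every ligand was below it. IL1RAP (chr3:190514051-190659750, plus strand), the shared accessory protein, was at 153, 149 and 144 CPM in the control samples and at 252, 263 and 256 CPM in the IRF1shRNA samples. It rose 1.73-fold (149 ± 4.8 to 257 ± 5.78 CPM, SD, n = 3, log2 fold change 0.79 ± 0.04, edgeR adjusted p = 8.03e-11), and the groups were far apart. IL1R1, the signalling IL-1 receptor that pairs with it, was at 88.3, 88.2 and 94.3 against 78.2, 85.9 and 88.5 CPM and was not called (log2 fold change −0.10 ± 0.05, edgeR adjusted p = 0.108). IL18R1, the IL-18 binding chain, was at 0.276, 0.220 and 0.315 against 0.579, 0.396 and 0.444 CPM and rose (log2 fold change 0.82 ± 0.29, edgeR adjusted p = 0.024). That call was lost without control replicate 2 (0.70) or without IRF1shRNA replicate 1 (0.64). IL18BP, a secreted protein that neutralises IL-18, was at 6.58, 6.59 and 6.87 against 7.90, 7.10 and 7.85 CPM. Its rise of 0.20 ± 0.08 (edgeR adjusted p = 0.0449) was not called once control replicate 1, control replicate 2, IRF1shRNA replicate 1 or IRF1shRNA replicate 3 was left out, where it was 0.17 to 0.19.

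Of the 9 IL-1 family ligands and antagonists, 6 were tested and 1 was called, lower (26.4% of all genes tested were lower). IL36RN (chr2:113058638-113065382, plus strand), the antagonist of the IL-36 receptor, was at 0.438, 0.220 and 0.201 CPM in the control samples and at 0.0952, 0.144 and 0.122 CPM in the IRF1shRNA samples, from 54, 27 and 30 against 12, 8 and 20 counts. The groups did not overlap, but control replicate 1 stood above the other two. Its log2 fold change of −1.28 ± 0.42 (edgeR adjusted p = 0.0176) became −0.84 without control replicate 1, −1.13 without IRF1shRNA replicate 1 and −1.32 without IRF1shRNA replicate 3, each past the threshold no longer. IL1A and IL1B, the classic inflammatory IL-1 ligands, were at 0.537 ± 0.117 against 0.449 ± 0.0894 and at 0.655 ± 0.0743 against 0.538 ± 0.0436 CPM (SD, n = 3), neither called. IL18, IL36B, IL37, IL1R2 and IL1RL2 were also below 1 CPM and not called. IL1RL1, the IL-33 receptor, had 7, 12 and 8 against 4, 2 and 2 counts and was not tested, and IL33 had at most 2 counts in a library.

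The IL-10 family signals at epithelial surfaces through paired chains. IL22RA1 (chr1:24119771-24143121, minus strand), the IL-22 binding chain, was at 0.519, 0.800 and 0.912 CPM in the control samples and at 0.111, 0.180 and 0.109 CPM in the IRF1shRNA samples, from 64, 98 and 136 against 14, 10 and 18 counts. It fell to 18.0% (0.744 ± 0.202 to 0.134 ± 0.0404 CPM, SD, n = 3, log2 fold change −2.58 ± 0.32, edgeR adjusted p = 3.09e-06), the largest log2 fold change of the 42 genes tested. IL20RB, a chain that pairs with it or with IL20RA, was at 3.38, 3.03 and 3.80 against 2.56, 2.22 and 2.30 CPM and fell (log2 fold change −0.52 ± 0.12, edgeR adjusted p = 0.000995). IL26, a ligand that acts through IL20RA and IL10RB, was at 2.82, 3.08 and 2.88 against 2.10, 2.07 and 1.88 CPM and fell as well (log2 fold change −0.54 ± 0.11, edgeR adjusted p = 0.000602). In all 3 of these genes the groups were apart. The shared chain IL10RB overlapped between groups (log2 fold change −0.16 ± 0.22, edgeR adjusted p = 0.597), IL20 had no count, and IL10, IL19, IL22, IL24, IL10RA, IL20RA and IL22RA2 were too low to test.

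Among the genes that rose, 3 passed the 2-fold threshold. IL32 (chr16:3065297-3082192, plus strand), an inflammatory cytokine of epithelial and lymphoid cells, was at 0.746, 0.792 and 0.516 CPM in the control samples and at 1.98, 2.27 and 1.51 CPM in the IRF1shRNA samples. It rose 2.80-fold (0.685 ± 0.148 to 1.92 ± 0.385 CPM, SD, n = 3, log2 fold change 1.47 ± 0.20, edgeR adjusted p = 6.98e-06). IL17D (chr13:20702127-20723098, plus strand), the IL-17 ligand with a broad tissue range, was at 1.13, 1.40 and 0.986 CPM in the control samples and at 2.93, 3.26 and 3.17 CPM in the IRF1shRNA samples. It rose 2.67-fold (1.17 ± 0.208 to 3.12 ± 0.172 CPM, SD, n = 3, log2 fold change 1.42 ± 0.14, edgeR adjusted p = 1.68e-07), and for both genes every silenced sample was above every control. The IL-17 receptor chains IL17RA and IL17RB were not called, with log2 fold changes of −0.11 ± 0.06 and 0.01 ± 0.13. Of the IL-17 receptor genes that the symbol pattern leaves out, IL17RC fell from 2.89 to 1.75 CPM (edgeR adjusted p = 0.00092). IL17RD fell from 5.55 to 4.25 CPM (edgeR adjusted p = 0.00215), and IL17RE and IL17REL were not called. IL5RA (chr3:3066326-3126613, minus strand), the IL-5 receptor of eosinophils, had 17, 5 and 9 against 36, 9 and 29 counts, or 0.138, 0.0408 and 0.0604 against 0.286, 0.162 and 0.176 CPM. Its difference of 1.41 ± 0.49 (edgeR adjusted p = 0.0234) was not called without control replicate 2 (1.12), control replicate 3 (1.24) or IRF1shRNA replicate 1 (1.10). IL16, a chemoattractant of CD4+ cells, was at 0.974, 1.18 and 1.21 against 0.675, 1.37 and 0.796 CPM and was not called (log2 fold change −0.32 ± 0.22, edgeR adjusted p = 0.251). Without IRF1shRNA replicate 2, its highest sample, IL16 passed the threshold (−0.60, edgeR adjusted p = 0.0173).

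**Figure D3:**
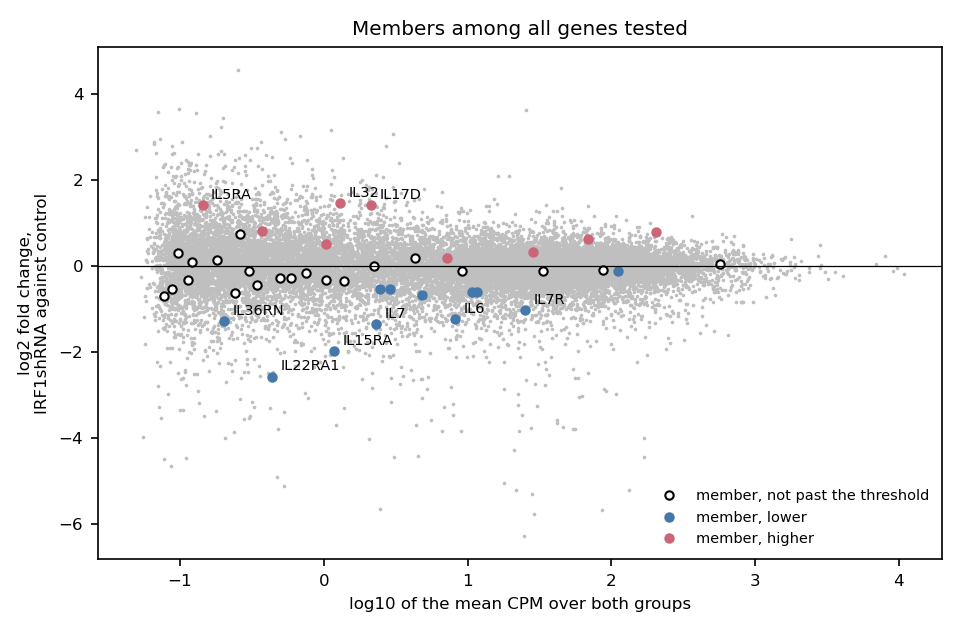
Log2 fold change against log10 of the mean CPM for all 18851 genes tested (grey), with the 42 interleukin and receptor genes marked as lower, higher or not called. The 9 labelled genes, those called with over 2-fold change, lie among grey points of like level, and IL6ST is the marked point farthest to the right.

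Between genes, levels were compared per length, as CPM per kilobase of merged exons (GENCODE 29), which may differ from the authors' annotation. Of the receptor chains that the symbol pattern holds, IL6ST was highest at 59.9 in the control and 62.0 CPM per kb in the IRF1shRNA samples, followed by IL13RA1 at 26.6 and 24.5. OSMR, which the pattern leaves out, lay between them at 39.6 and 60.7 CPM per kb. Next in the controls came IL1RAP at 12.9, IL1R1 at 12.7 and IL31RA at 11.8 CPM per kb. In the IRF1shRNA samples, IL1RAP (22.2) and IL31RA (18.1) were higher than IL1R1 (11.9). IL7R stood at 5.54 and 2.73, IL4R at 4.25 and 5.35, and IL15RA at 0.521 and 0.127 CPM per kb, so the mean of IL7R was above that of IL4R in the controls and below it after silencing. Of the ligands that the pattern holds, IL6 was at 5.54 and 2.35, IL26 at 2.72 and 1.88, IL7 at 0.989 and 0.372 and IL15 at 0.749 and 0.474 CPM per kb. Among ligands that the pattern leaves out, LIF (8.84 and 9.12), CXCL8 (7.9 and 5.78) and CLCF1 (7.54 and 6.33) were above IL6.

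**Figure D4:**
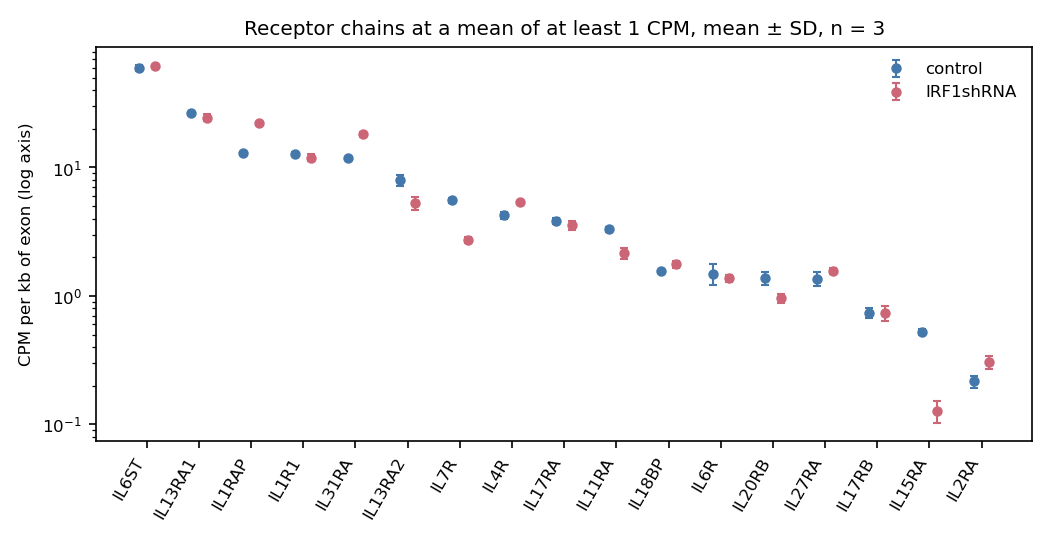
CPM per kb of exon (log axis), mean ± SD of 3 samples per group, for receptor chains at a mean of at least 1 CPM and for IL18BP, a soluble binding protein rather than a receptor chain. IL6ST is the highest of those shown in both groups, IL1RAP and IL31RA rise to 22.2 and 18.1, and IL15RA drops from 0.521 to 0.127.

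Some of these genes share exon sequence with neighbours, and whether counting used strand is not given in the sources used here. A gene on the opposite strand covers 39.0% of the exon length of IL17D, 36.6% of IL16, 23.3% of IL21R, 20.7% of IL6, 16.3% of IL7 and 15.6% of IL18BP. Neighbours on the same strand cover 50.8% of IL2RG, 38.1% of IL10RB and 17.4% of IL11RA. STEAP1B, which overlaps IL6, fell from 1.04 to 0.613 CPM, ZC2HC1A beside IL7 from 21.6 to 16.3 CPM, and GALT beside IL11RA from 11.6 to 8.34 CPM, each called by edgeR. NUMA1, which overlaps IL18BP, was at 85.8 and 89.7 CPM and not called (edgeR adjusted p = 0.331). The part of shared reads in the results for these genes was not tested.

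Genes of the same pathways that the symbol pattern leaves out were counted as well, beside 50.5% called among all genes tested, 26.4% lower and 24.1% higher. The share called was 5 of 10, 4 of 8 and 7 of 14 in the first 3 lists given here, near that of all genes. Of 15 further family members in the table, 10 were tested, 5 fell and none rose at an adjusted p under 0.05. The same 5 genes, all lower, were the only ones of the 10 to pass an unadjusted p of 0.05 in edgeR. DESeq2 also called 0 higher. IL12RB1, a chain shared by the IL-12 and IL-23 receptors, fell from 0.585 ± 0.148 to 0.0669 ± 0.0385 CPM (SD, n = 3, log2 fold change −3.29 ± 0.41, edgeR adjusted p = 2.63e-06). SIGIRR, a receptor that dampens IL-1 and IL-18 signalling, fell from 18.3 ± 2.53 to 9.05 ± 1.14 CPM (SD, n = 3, edgeR adjusted p = 1.99e-07). Of 9 other gp130 ligands and receptors, 8 were tested, 2 fell and 2 rose (26.4% and 24.1% of all genes tested). The partner of IL31RA, OSMR, rose from 284 ± 4.99 to 436 ± 15.8 CPM (log2 fold change 0.62 ± 0.04, edgeR adjusted p = 2.06e-09), and LIFR, the leukaemia inhibitory factor receptor, from 67.3 to 81.6 CPM.

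Of 14 genes of IL-1 and IL-18 receptor signalling, 4 fell and 3 rose (26.4% and 24.1% of all genes tested). MYD88, the adaptor of these receptors, fell from 38.7 ± 3.65 to 17.1 ± 0.385 CPM (SD, n = 3, log2 fold change −1.18 ± 0.07, edgeR adjusted p = 1.93e-10), and TOLLIP, an inhibitor of the pathway, from 35.1 to 27.0 CPM. Of 15 JAK-STAT genes, 8 fell and 3 rose (26.4% and 24.1% of all genes tested). STAT2, a factor of interferon signalling, fell from 64.1 to 31.9 CPM (log2 fold change −1.01, edgeR adjusted p = 1.66e-10). STAT4, which acts after IL-12, rose from 0.064 to 0.267 CPM (log2 fold change 2.06 ± 0.42, edgeR adjusted p = 0.000552). The rise of STAT4 rested on few reads, 11, 6 and 8 against 33, 14 and 47 counts. Of 9 genes that process IL-1 and IL-18, 7 were tested, 4 fell and 2 rose (26.4% and 24.1% of all genes tested). CASP1, the protease that matures IL-1 beta and IL-18, fell from 0.908 ± 0.143 to 0.0307 ± 0.00594 CPM (log2 fold change −4.92 ± 0.35, edgeR adjusted p = 3.53e-09). This was 100, 103 and 160 against 4, 2 and 4 counts, with IRF1shRNA replicate 2 below the floor of 3 counts, so the size of the fall rested on few reads. PYCARD, the inflammasome adaptor, was at 0.150 and 0.0522 CPM, a call lost without control replicate 1 (−1.26), control replicate 2 (−1.29), IRF1shRNA replicate 1 (−1.28) or IRF1shRNA replicate 2 (−1.26), and the sensor NLRC4 rose from 0.484 to 1.16 CPM.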

How the data were processed

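RNA was sequenced from 3 control and 3 IRF1shRNA samples of BT-549 cells. The deposited table holds the authors' counts for each gene symbol, not normalized, and all 6 columns were matched to samples by title. The submitters' processing notes name CASAVA 1.8.2, STAR 2.7.9a, featureCounts, DESeq2 1.24.0 and GRCh38.p7. The annotation release and strand setting are not given in the sources used here. Among values of 2 to 11 counts, between 72.1% and 75.2% per sample were even, so the mates of a read pair may have been counted separately, and halved counts were run as an alternative.

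The deposited counts were tested with edgeR 4.0.16 (R 4.3.3): quasi-likelihood test, group as the single factor, TMM scaling, the filterByExpr filter (minimum count 10) and p-values adjusted by Benjamini-Hochberg over the 18851 genes left. The SE is the log2 fold change divided by the square root of F. The procedure was tested on simulated data. P-values measure the spread between triplicate cultures, and floors cover counting error only. Alternatives were DESeq2 1.42.0, 3 other scalings, 2 other filters, halved counts, each replicate left out, and the replicate number as a block. Same-numbered samples deviated together with correlations of −0.106, 0.061 and 0.15 over 13066 genes, so numbers were not taken as pairs. Positions and exon lengths come from GENCODE 29 (GRCh38).

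The genes, lists and motifs were chosen with earlier results of these data known. Described in full were genes whose mean reached 1 CPM, or called with over 2-fold change. From the other lists, genes were named if called with over 2-fold change, or, where fewer than 2 were, the 2 with the smallest adjusted p. The IL-17 receptor genes outside the symbol pattern were named beside this rule, as were LIF, CXCL8 and CLCF1. IL3RA and IL9R were not among the symbols that matched and so were not analysed here. From the other lists, 1 gene that the rule names is not reported here.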

Additional observations from a re-analysis of the deposited data

How the results depend on the processing

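Over the alternatives, between 9 and 13 of the genes tested were called lower and between 6 and 10 higher, with 4 to 6 and 2 to 4 past 2-fold. Of the values recomputed for single interleukin genes, 521 kept their direction and side of the threshold, 27 lost the call, 1 gained it and 16 changed sign. The median log2 fold change of the genes tested was 0.0076 with no filter, where 65 genes entered, and −0.22 to −0.11 with a replicate left out. With the 1 CPM filter, which CASP1 and PYCARD do not pass, 2 genes of IL-1 and IL-18 processing were called lower. Under upper quartile scaling and library size only, 5 of IL-1 and IL-18 receptor signalling were called higher. The median log2 fold change of all genes tested was 0.0414 and 0.0488 under these scalings. The cause of the added calls was not tested. With the replicate block, 12 genes were called lower and 8 higher (6 and 3 past 2-fold), IRF1 was at −1.74, IL18BP lost its call (0.19, adjusted p = 0.063 in edgeR) and PYCARD did too (−1.36, adjusted p = 0.0587). IL17RB changed sign with the block (−0.002).

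The other sign changes were in genes not called, with a replicate left out: IL10RB from −0.27 to 0.0138, IL17RB from −0.0919 to 0.0837, IL18 from −0.86 to 0.16, IL1R2 from −0.0978 to 0.37, IL21R from −0.27 to 0.13, IL2RB from −1.55 to 0.0732, IL34 from −0.31 to 0.77, IL36B from −0.0562 to 0.26 and IL6R from −0.21 to 0.0374. DESeq2 did not call IL18BP, IL18R1, IL5RA or PYCARD (adjusted p = 0.0603, 0.0531, 0.0524 and 0.0862). IL13RA1 was not called under any of the 3 other scalings or the 1 CPM filter, and no filter ended the calls of IL18BP and PYCARD. IL5RA, with 5 to 36 counts per library, and IL36RN, with 8 to 54, rested on few reads.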
